A study of Danio rerio with 33 samples.

Results

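The comparison described here sets zebrafish embryos exposed to extracts of Barcelona air particle filters against embryos exposed to the extract of a mock filter, which went through the extraction without sampled air. It parts what came with the sampled air from what came with the filter and its extraction. The members were all libraries of these 2 kinds in library series 35, the first of the library series that the library numbers form, which gave 12 of the 33 libraries: 9 of air and 3 of mock filter. The air libraries were 3 of harbour filters (32, 36 and 38), 3 of traffic road filters (26, 28 and 30) and 3 of airport filters (44, 48 and 54), and each came from another filter. All groups were wild-type embryos treated between 96 and 120 hours after fertilisation, so for 24 h. Filters were extracted with a mix of dichloromethane and methanol, and the extracts were taken up in methanol. Each library was 1 pool of 10 embryos. Harbour and road filters and airport filters 44 and 48 were from the cold season, and airport filter 54 was from the warm season. The labels give no dose, so an equal dose from each filter is an assumption. Mock filter 1 is numbered 02 in its title and mock filter 2 and 3 are both numbered 03, so the latter may be pools of 1 mock filter. Their counts differed by a chi-square of 5 per degree of freedom, against 18.2 and 19.7 between each of them and mock filter 1. The 3 vehicle libraries of the same series, which had methanol alone, entered the fit as background and helped to set its spread. All groups shared 1 estimate of spread per gene, so p-values rest on the spread within air, mock filter and vehicle together. In air, with 1 pool per filter, that spread was the one between pools and filters together. In vehicle it was the one between pools, as in mock filter 2 and 3 if they share a filter.

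Many combustion products, among them polycyclic aromatic hydrocarbons, bind the aryl hydrocarbon receptor (AhR), a transcription factor that pairs with ARNT in the nucleus and switches on genes for their metabolism. In fish ahr2 is the main receptor for such compounds, cyp1a, cyp1b1 and cyp1c1 encode cytochrome P450 enzymes among its best known targets, and ahrra encodes a repressor that feeds back on the receptor. In zebrafish embryos AhR activation has also been tied to changes of jaw regulators such as foxq1a and sox9b.

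Library totals were 18448718 to 51854033 counts, with 71.66 to 77.08% uniquely mapped reads, and 21608 genes had enough counts to be tested. Markers of 15 organs and cell types fitted whole embryos, since all 49 matched markers had counts in all 12 air and mock filter libraries, the lowest being 7. Libraries of both control groups stood apart from their own group, and those of mock filter were the pair numbered 03. On the second principal component, which held 19.3% of the variance, mock filter 2 and 3 and vehicle 3 lay at -50.3, -50.1 and -54.3, while the other 12 libraries lay between -8.3 and 28.2. The summed level of 20 interferon-induced antiviral genes was 516 and 566 CPM (counts scaled to a library of 1000000) in mock filter 2 and 3 and 548 CPM in vehicle 3, against 235 CPM in mock filter 1, 226 and 204 CPM in vehicle 1 and 2, and 194 to 350 CPM in the 9 air libraries. Without those 3 libraries mock filter 1 was the sole mock filter library and was assumed to vary like the other groups. Values from that fit are given below as those against mock filter 1 alone. Mock filter 1 had 2 FLIs in the quality table, read here as flowcell lanes, and the air libraries had 4 or 6. Lanes and groups thus cannot be told apart in these values. The first principal component (25.5%) separated the airport libraries, at 46.6 to 73.1, from the other 12, at -30.9 to 14.5. Adjusted p-values below come from the quasi-likelihood test of edgeR with Benjamini-Hochberg adjustment over the 21608 genes, with a threshold of 0.05, and log2 changes are given with their standard error. All comparisons of a site share the same 3 mock filter libraries. The adjusted p of a gene also depends on how many other genes changed at that site. Passing at 1 site and not at another is therefore no test of a difference between sites.

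Over the mean of the 3 sites, 8 genes passed the threshold against mock filter, 3 higher and 5 lower, which is 0.037% of the genes tested (0.0139% higher and 0.0231% lower), and 3295 genes (15.2%) had an unadjusted p under 0.05. The 9 air libraries did not overlap with the 3 mock filter libraries in 456 genes (2.11%), of which 227 were higher (1.05%) and 229 lower (1.06%). The median change over all genes was -0.01 on the log2 scale. The count of 8 depended on single libraries: it was 358 without mock filter 1, 0 without mock filter 2 or mock filter 3, 120, 42 and 413 without vehicle 1, 2 and 3, 13, 2 and 1 without harbour 32, 36 and 38, 4, 2 and 14 without road 26, 28 and 30, and 4, 3 and 20 without airport 44, 48 and 54. Against mock filter 1 alone it was 0. Taken by itself, harbour air gave 15 genes (0.0694%), road air 3 (0.0139%) and airport air 3209 (14.9%). Mock filter and vehicle differed in no gene at the adjusted threshold (0%), with 1372 genes (6.35%) at an unadjusted p under 0.05 in edgeR and 1 gene called by DESeq2. Without vehicle 3 they differed in 54 genes.

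Genes of the AhR pathway were among the few that passed in harbour and were all 3 that passed in road. Of its 21 listed genes 20 had enough counts, and over the 3 sites 2 rose and none fell. Harbour air raised 4 of the 20, road air 3 and airport air 2, with no member lower at any site. Of all genes tested, 0.037%, 0.0139% and 7.92% were higher at these sites, so the airport count was near the share of all genes. The airport count was 1 without airport 44 and 4 without airport 54, where 1032 of 21888 and 1898 of 21825 genes tested were higher. The median log2 change of the 20 was 0.33 for air, against -0.01 for all genes, and 0.33, 0.32 and 0.24 at harbour, road and airport, against 0.01, 0.02 and -0.03. With mock filter 1 as the sole mock filter library these medians were 0.17, 0.18, 0.15 and 0.16, and no member passed. The summed level of the 7 target enzymes was 130 to 151 CPM in mock filter and 126 to 167 CPM in vehicle. It was 300 to 407 CPM in harbour, 205 to 533 CPM in road and 159 to 203 CPM in airport.

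The gene cyp1b1 (ENSDARG00000068934), a monooxygenase of polycyclic hydrocarbons, had 2.70, 2.66 and 2.58 CPM in mock filter 1 to 3 and 2.57, 2.69 and 3.20 CPM in vehicle. It had 13.1, 16.7 and 12.0 CPM in harbour 32, 36 and 38, 19.8, 13.5 and 7.25 CPM in road 26, 28 and 30, and 3.37, 3.06 and 4.29 CPM in airport 44, 48 and 54. All 9 air libraries were above all 3 mock filter libraries, harbour and road by far the most. The log2 change was 1.73 ± 0.25 for air (edgeR adjusted p = 0.0313), 2.39 ± 0.28 for harbour (adjusted p = 0.00291) and 2.35 ± 0.28 for road (adjusted p = 0.0107), while airport had 0.45 ± 0.29 (adjusted p = 0.312). The 3 sites differed (adjusted p = 0.0011). The call for air was lost without mock filter 2 or 3, harbour 36 or 38 or road 28, with adjusted p up to 0.34, and against mock filter 1 alone, where the change was 1.71 with adjusted p = 0.52. Its log2 change was between 1.61 and 1.83 in those fits without 1 library, and the call for harbour held in all 15 of them. The call for road was lost without mock filter 1, 2 or 3 or road 28, with adjusted p up to 0.175.

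cyp1c1 (ENSDARG00000101195), another P450 enzyme of the same family, had 18.1, 13.9 and 14.7 CPM in mock filter and 14.3, 15.0 and 13.7 CPM in vehicle. It had 35.4, 44 and 40.5 CPM in harbour, 37.5, 36 and 27.4 CPM in road, and 13.3, 17.2 and 19.8 CPM in airport. Harbour and road lay above mock filter without overlap, and airport overlapped with it. The log2 change was 0.86 ± 0.14 for air (edgeR adjusted p = 0.0381), 1.36 ± 0.16 for harbour (adjusted p = 0.00291), 1.11 ± 0.16 for road (adjusted p = 0.0295) and 0.11 ± 0.16 for airport (adjusted p = 0.678), and the sites differed (adjusted p = 0.000895). The air call was lost without mock filter 2 or 3, harbour 36 or 38, road 26 or 28 or airport 48, with adjusted p up to 0.34. The harbour call held without any 1 library. The road call was lost in 9 of the 15 such fits, those without mock filter 1, 2 or 3, vehicle 1 or 2, harbour 38, road 26 or 28, or airport 48, with adjusted p up to 0.38.

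cyp1a (ENSDARG00000098315), the P450 enzyme most used as a marker of AhR activation, had 31.3, 33.5 and 35.7 CPM in mock filter and 28, 35.2 and 36 CPM in vehicle. It had 133, 242 and 185 CPM in harbour, 368, 194 and 81 CPM in road, and 46.5, 49.5 and 35.3 CPM in airport. Every harbour and road library was higher than every mock filter library, and airport 54 lay inside the mock filter range. The log2 change was 2.48 ± 0.38 for harbour (edgeR adjusted p = 0.018) and 2.68 ± 0.38 for road (adjusted p = 0.0295), against 0.38 ± 0.36 for airport (adjusted p = 0.514), and the sites differed (adjusted p = 0.00262). For air the change was 1.85 ± 0.33 and did not pass (adjusted p = 0.055), with adjusted p from 0.0019 to 0.393 over the fits that left out 1 library, of which those without mock filter 1, vehicle 1, 2 or 3, road 26 or road 30 called it. The harbour call was lost without mock filter 2 or 3 or harbour 36 or 38 (adjusted p up to 0.13) and the road call in 10 of 15 such fits (up to 0.38). Road filter 26 had the highest cyp1a and cyp1b1 of the 9 filters and road filter 30 the lowest of the 6 harbour and road filters.

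ahrra (ENSDARG00000099702), the AhR repressor gene, was nearly silent in controls, with 0, 2 and 3 counts in mock filter and 4, 2 and 2 counts in vehicle. It had 14, 23 and 27 counts in harbour, 29, 27 and 17 in road, and 10, 14 and 23 in airport, so all 9 air libraries were above all control libraries. Scaled for library size, air had 11.6 times the counts of mock filter (184 against 5, 95% counting interval 4.89 to 36), harbour 14.9 times (6.07 to 47.5), road 14.2 times (5.81 to 45.0) and airport 7.36 times (2.94 to 23.7), intervals that cover counting error only. It passed for harbour (edgeR adjusted p = 0.0345) and airport (adjusted p = 0.011), and not for air (adjusted p = 0.055) or road (adjusted p = 0.14). Yet the log2 change was larger in road, at 3.75 ± 0.63 (edgeR unadjusted p = 2.6e-05), than in airport, at 2.87 ± 0.66 (unadjusted p = 0.00055). The airport call held without any 1 library. The harbour call was lost without mock filter 2 or 3, harbour 36 or 38, road 28 or airport 44, with adjusted p up to 0.181. The test of a difference between sites did not pass (adjusted p = 0.284).

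**Figure D1:**
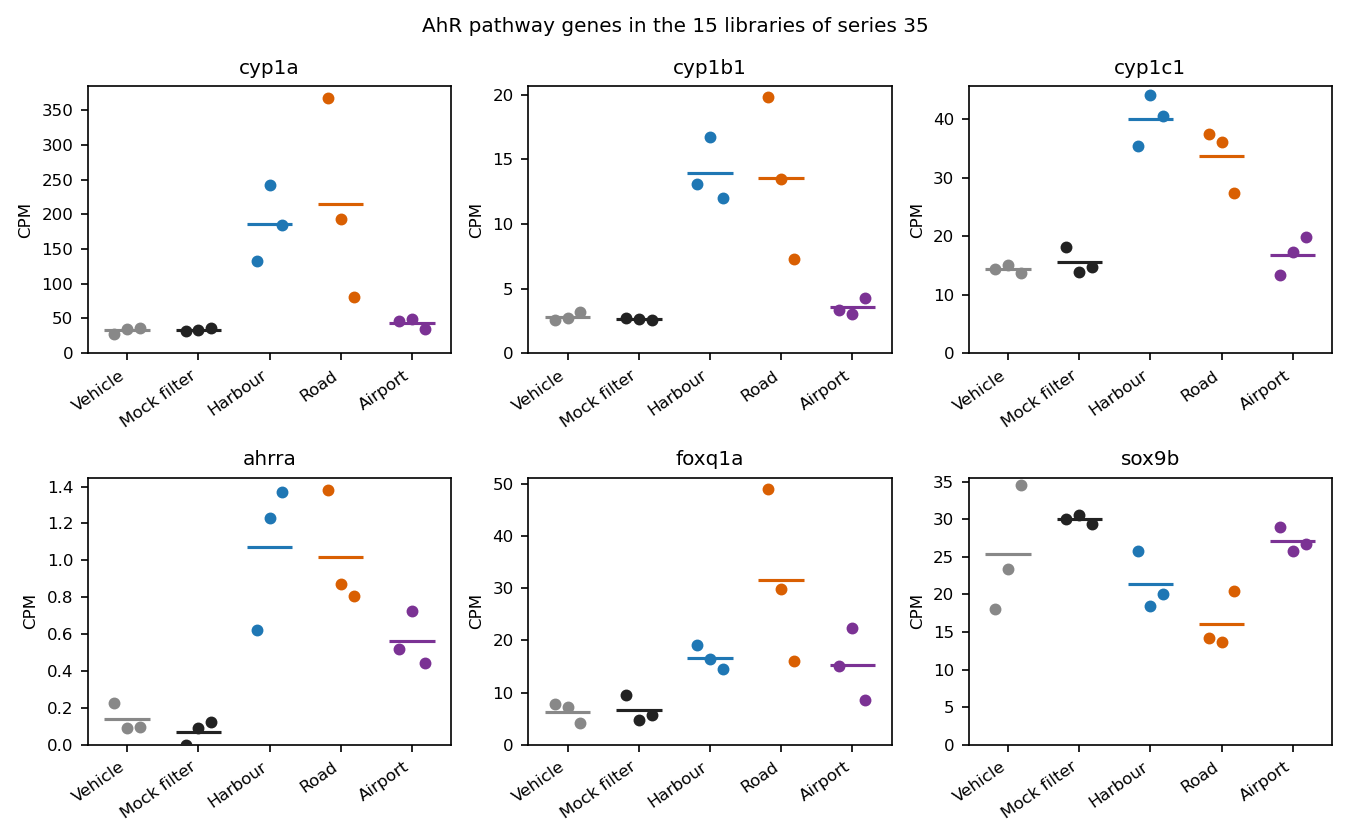
Levels of 6 AhR pathway genes (CPM, linear axes from 0) in vehicle, mock filter, harbour, road and airport libraries; each point is 1 library and each bar the mean of 3. Harbour and road stand above both controls for cyp1a, cyp1b1 and cyp1c1, airport stays near mock filter for these, and ahrra is above mock filter in all 9 air libraries.

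Receptors and partners moved little. ahr2 had 147, 142 and 153 CPM in mock filter, 156, 181 and 161 CPM in harbour, 207, 187 and 171 CPM in road, and 194, 178 and 189 CPM in airport. All air libraries were above mock filter, and airport passed with a log2 change of 0.34 ± 0.09 (edgeR adjusted p = 0.0225), a call lost without mock filter 1 or 2 or airport 44, while air had 0.29 (adjusted p = 0.108). ahr1a and ahr1b, the other receptors, arnt and arnt2, the partners, and aip, a chaperone of the unbound receptor, did not pass at any site. The range of aip was 52.8 to 56.5 CPM in mock filter and 48.6 to 59.6 CPM in air. The co-chaperone gene ptges3b had 30, 31.5 and 30.5 CPM in mock filter, 42.5, 37.5 and 44.2 CPM in harbour, 24.4, 31.8 and 25.7 CPM in road, and 36.4, 38.4 and 34.9 CPM in airport, and the sites differed (adjusted p = 0.00532) although no site passed against mock filter. Of the other repressors, tiparp had a change of 0.31 for air (adjusted p = 0.206) and ahrrb had under 1.5 CPM in every library of air and mock filter.

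Among the other targets, the jaw regulator foxq1a had 9.54, 4.77 and 5.6 CPM in mock filter, 19.1, 16.4 and 14.5 CPM in harbour, 49, 29.9 and 16 CPM in road, and 15.1, 22.3 and 8.64 CPM in airport. Harbour and road lay above mock filter, but the change for air, 1.59 ± 0.35, did not pass (edgeR adjusted p = 0.0778). It passed without mock filter 1 or without vehicle 3 (adjusted p from 0.0272 to 0.45 over the fits without 1 library). sox9b, a cartilage regulator, had 30, 30.5 and 29.4 CPM in mock filter and 14.2, 13.7 and 20.4 CPM in road, and it lay at 18.5 to 25.7 CPM in harbour and 25.8 to 29 CPM in airport. All 9 air libraries were below mock filter, vehicle ran from 18.0 to 34.5 CPM, the air change of -0.51 did not pass (adjusted p = 0.154), and the sites differed (adjusted p = 0.046). The glucuronosyltransferase gene ugt1b1 had 7.21 to 10.2 CPM in mock filter, 13.3 to 18.5 CPM in harbour, 12.5 to 14.8 CPM in road and 5.97 to 7.22 CPM in airport, and the sites differed (adjusted p = 0.00113). The sulfotransferase gene sult6b1, the quinone reductase gene nqo1, and cyp1c2 and cyp1d1 had air changes of 0.44, 0.35, 0.45 and 0.19, none of which passed. For cyp1c2 and cyp1d1 the sign depended on the controls, since against mock filter 1 alone their changes were -0.16 and -0.08.

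The other gene higher in air as a whole was THBS1 (ENSDARG00000010785, a thrombospondin, a secreted matrix protein). It had 152, 135 and 140 CPM in mock filter and 187 to 228 CPM in the 9 air libraries, which did not overlap, while vehicle had 189, 192 and 144 CPM and overlapped with air. The log2 change was 0.56 ± 0.09 (edgeR adjusted p = 0.0494), with 0.47, 0.55 and 0.67 at harbour, road and airport. setd3, which encodes a histidine methyltransferase of actin, had 94.7, 80.4 and 71.1 CPM in mock filter, 65.4 to 69.9 CPM in vehicle and 47.2 to 69.3 CPM in air, again without overlap between air and mock filter. Its change was -0.55 ± 0.09 (adjusted p = 0.0381). Both calls were lost without mock filter 2 or 3, harbour 36 or 38, road 26 or 28 or airport 44 or 48, with adjusted p up to 0.358 for THBS1 and 0.267 for setd3.

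Among the 5 genes lower in air, pcdh1g30, a clustered protocadherin of neural cell adhesion, had 54.6, 63.3 and 54 CPM in mock filter and 47.5 to 51.5 CPM in vehicle. It had 18.8, 18.3 and 12.2 CPM in harbour, 48, 50.1 and 58.9 CPM in road, and 28, 29.2 and 36 CPM in airport. Harbour and airport were below both controls and road overlapped with mock filter. The log2 change was -0.94 ± 0.12 for air (edgeR adjusted p = 0.0124), -1.80 ± 0.15 for harbour (adjusted p = 9.68e-05), -0.88 ± 0.15 for airport (adjusted p = 0.00275) and -0.13 for road (adjusted p = 0.853), and the sites differed (adjusted p = 0.0002). The air call was lost without mock filter 2 or 3 (adjusted p up to 0.171). The harbour call held without any 1 library and against mock filter 1 alone (-1.73, adjusted p = 0.0314), but not with all 33 libraries in the fit. Clustered protocadherins are related genes that share some sequence, so reads may be split between them.

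zgc:171534, a gene with a provisional name, had 17.0, 10.1 and 11.8 CPM in mock filter, 3.56, 1.01 and 1.32 CPM in harbour, 10.2, 8.24 and 22.6 CPM in road, and 0.259, 0.519 and 0.651 CPM in airport. Harbour and airport were below mock filter and road overlapped with it, with an air change of -2.42 ± 0.32 (edgeR adjusted p = 0.0186, lost without mock filter 2 or 3 or harbour 38). Its airport change of -4.64 ± 0.52 held without any 1 library and against mock filter 1 alone (-5.01, adjusted p = 0.0141). The other genes lower in air were low or varied among the controls. jac11, a jacalin-like lectin gene, had 8, 37 and 39 counts in mock filter, 7, 11 and 22 in vehicle and 1 to 8 in air, which is 8.31 times fewer in air than in mock filter for library size (95% counting interval 5.47 to 12.9). rnf213b, which encodes a ubiquitin ligase, had 50, 65 and 80 counts in mock filter, 10, 16 and 47 in vehicle and 3.81 times fewer in air (3.08 to 4.72). Both passed (edgeR adjusted p = 0.0381 each), and both calls were lost without mock filter 2 or 3, harbour 36 or 38, road 26 or 28 or airport 44 or 48, with adjusted p up to 0.34. Mean vehicle levels were closer to air than mock filter levels were for THBS1, setd3, jac11 and rnf213b.

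The mock filter libraries also set the direction of other changes. mxc, an interferon-induced antiviral gene, had 1.47, 56.9 and 61.7 CPM in mock filter, 1.45, 1.12 and 78.8 CPM in vehicle and 0.861 to 5.08 CPM in air. The air change of -4.45 ± 0.92 did not pass (edgeR adjusted p = 0.0624) and was 0.33 against mock filter 1 alone. No interferon-induced gene of the 20 tested passed over air, 14 were lower at an unadjusted p under 0.05 against a background of 7.61% lower over all genes, and none had a positive change, with a median of -1.1. Set against mock filter 1 alone, the median was -0.03 and 10 of 20 were positive. The summed level of 8 macrophage markers was 57.1, 119 and 111 CPM in mock filter, 121 CPM in vehicle 3, 47.6 and 47.9 CPM in the other vehicle libraries and 42.3 to 76.3 CPM in air. In pools of whole embryos, fewer cells of a type and less RNA per cell cannot be told apart. fthl28, a ferritin heavy chain gene, had 111 to 125 CPM in mock filter and 16.9 to 53.9 CPM in vehicle, and the 9 air libraries ran from 68.9 to 281 CPM, so air (change 0.00) overlapped with mock filter. jac9, another lectin gene, had 53.3 CPM in mock filter 1 and 0.688 and 0.443 CPM in mock filter 2 and 3, so its change of 0.72 became -0.81 against mock filter 1 alone. The part of the interferon and macrophage levels in the results for other genes was not tested.

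**Figure D2:**
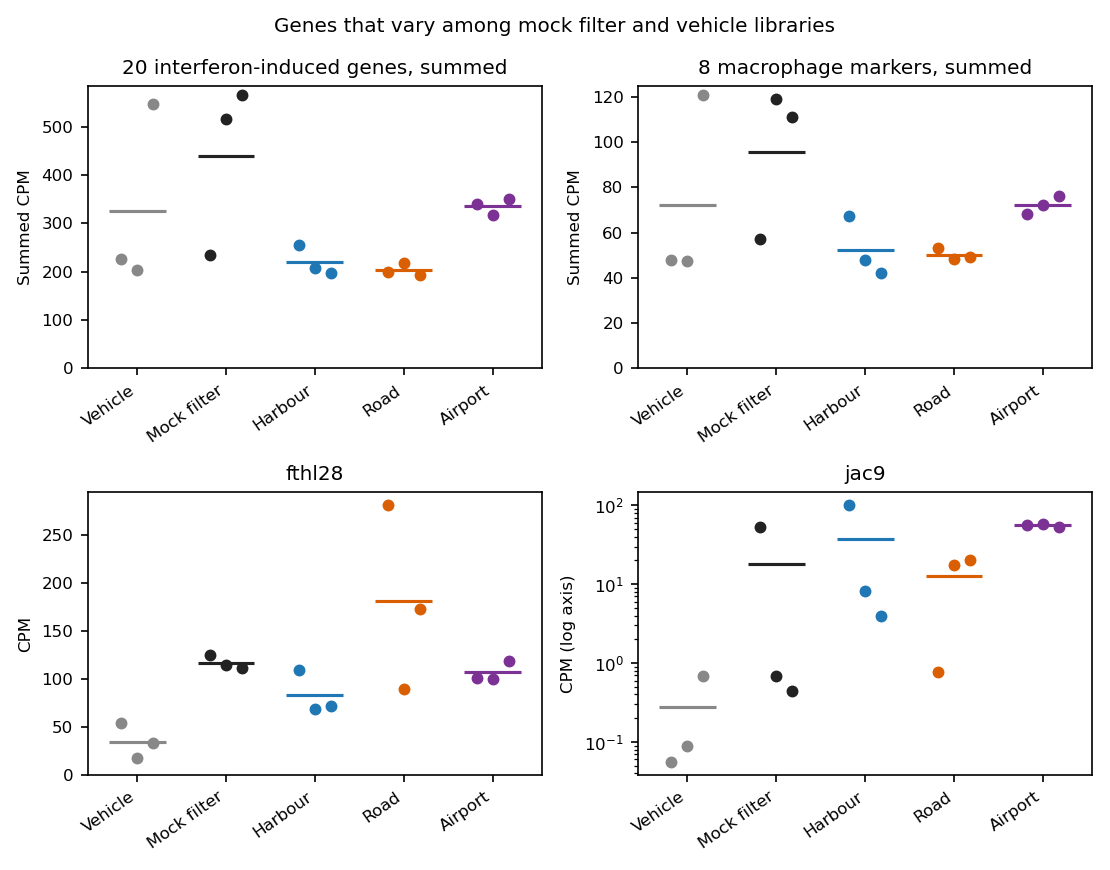
Summed levels of 20 interferon-induced genes and of 8 macrophage markers, and levels of fthl28 and jac9, in CPM by group (log axis for jac9); each point is 1 library and each bar the mean of 3. Mock filter 2 and 3 and vehicle 3 stand above the other libraries in both upper panels, and fthl28 is above vehicle in the 3 mock filter libraries.

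Harbour air raised 8 genes and lowered 7, so 0.037% and 0.0324% of the genes tested. Besides cyp1a, cyp1b1, cyp1c1 and ahrra, the higher genes included a ribonucleotide reductase gene, an embryonic globin, a keratin and ENSDARG00000115161, for which no symbol was matched. The lower genes were pcdh1g30, zgc:171534, cfp, gli1, ftr88, zgc:174696 and ENSDARG00000099511, also without a symbol. The count of 15 was 138 without mock filter 1, 6 and 3 without mock filter 2 and 3, 26 and 171 without vehicle 1 and 3, 25, 6 and 5 without harbour 32, 36 and 38, 24 without road 30, and 3 against mock filter 1 alone.

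The symbol rrm2 belongs to a pair of genes in the table, and the one that passed, ENSDARG00000078069, was not the one on the cell cycle list. Ribonucleotide reductase makes the building blocks of DNA. ENSDARG00000078069 had 6.22, 10.2 and 5.96 CPM in mock filter, 45.4, 31.8 and 58.0 CPM in harbour, 22.9, 24.1 and 29.0 CPM in road, and 3.84, 6.80 and 6.36 CPM in airport. Harbour and road were above mock filter, but vehicle, with 24.9, 22.3 and 9.30 CPM, overlapped with road. This rrm2 had a harbour change of 2.60 ± 0.34 (edgeR adjusted p = 0.00625, lost without mock filter 3 at 0.0702), which was 2.86 against mock filter 1 alone (adjusted p = 0.0385), and the sites differed (adjusted p = 0.000639). krt99, a keratin gene, had 4.87, 4.18 and 4.63 CPM in mock filter, 5.36 to 6.71 CPM in vehicle, 8.10, 13.2 and 10.9 CPM in harbour, and 6.40 to 9.43 CPM in road and airport. All 9 air libraries were above mock filter. Harbour passed (1.23 ± 0.19, adjusted p = 0.0216, lost without mock filter 2 or 3 or harbour 36 or 38, up to 0.16), airport passed (0.71, adjusted p = 0.0237, lost without mock filter 2 or 3 or airport 44) and air did not (0.94 ± 0.16, adjusted p = 0.055).

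Among red cell genes 1 passed in harbour. This gene, hbbe2, an embryonic beta globin, had 31.4, 37 and 35.9 CPM in mock filter, 74.6, 77.5 and 111 CPM in harbour, 45.9, 47.9 and 34.6 CPM in road, and 19.9, 39 and 24.7 CPM in airport. Harbour stood apart from mock filter, with a log2 change of 1.34 ± 0.21 (edgeR adjusted p = 0.0227, lost without mock filter 2 or 3 or harbour 36 or 38, up to 0.15), and the sites differed (adjusted p = 0.00086). Of 15 erythroid markers tested hbbe2 alone passed in harbour (3 passed without airport 54), all 15 had a positive change with a median of 0.93, and 11 lay above mock filter without overlap, against 10.9% of all genes. The median was 0.96 against mock filter 1 alone. The summed level of the list was 395 to 456 CPM in mock filter, 401 to 591 CPM in vehicle and 826 to 1190 CPM in harbour, against 445 to 599 CPM in road and 326 to 522 CPM in airport. Members that did not pass were hbbe1.1, another beta globin (1.88, adjusted p = 0.0532), klf1, the erythroid transcription factor (1.27, adjusted p = 0.0753), slc4a1a, the anion exchanger of the red cell membrane (1.23, adjusted p = 0.0758), and alas2, which starts heme synthesis (0.98, adjusted p = 0.117). hbbe1.1 had 84.0, 102 and 114 CPM in mock filter and 292, 346 and 466 CPM in harbour.

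Of the genes lower in harbour, cfp (properdin, a positive regulator of complement) had 33.1, 25.1 and 34.2 CPM in mock filter, 13.4, 9.82 and 8.96 CPM in harbour, 20.4 to 32.8 CPM in road and 29.8 to 41.8 CPM in airport. Harbour stood below mock filter, road and airport (-1.52 ± 0.23, edgeR adjusted p = 0.0172), and the sites differed (adjusted p = 0.00113). gli1, a transcription factor and target of Hedgehog signalling, had 26, 28 and 30.8 CPM in mock filter, 14.5, 17.3 and 17.8 CPM in harbour, 24.2 to 26.1 CPM in road and 19.4 to 21.8 CPM in airport. It fell by 0.77 ± 0.12 in harbour (adjusted p = 0.0172) and by 0.45 in airport (adjusted p = 0.0185, lost without mock filter 2 or 3 or any of the 3 airport libraries), and the sites differed (adjusted p = 0.00738). ftr88, a TRIM family gene of fish, had 15, 16 and 11 counts in mock filter and 3, 6 and 9 in vehicle, with means of 0.597 and 0.293 CPM. It had 0 counts in all 3 harbour libraries, 3, 3 and 5 in road and 19, 14 and 41 in airport. With 0 counts, harbour was at most 0.107 of the mock filter level (95% counting interval), and the adjusted p was 0.0172. With all 33 libraries in the fit none of cfp, gli1 and ftr88 passed in harbour (adjusted p = 0.31, 0.119 and 0.0917), and each was also lost without mock filter 3, harbour 36 or harbour 38, with adjusted p up to 0.146, 0.128 and 0.0972, gli1 without harbour 32 or mock filter 2 too and ftr88 without mock filter 2 too.

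Road air raised 3 genes and lowered none (0.0139% of the genes tested), with 2036 genes (9.42%) at an unadjusted p under 0.05. The 3 were cyp1b1, cyp1a and cyp1c1, described above. The road count was 0 without mock filter 1, 2 or 3 or road 28, 1 without vehicle 1 or 2, harbour 38, road 26 or airport 48, 5 without road 30 and 124 without vehicle 3, and it was 0 against mock filter 1 alone. By its mean with harbour, 9 genes passed (0.0417%): cyp1b1, cyp1c1, cyp1a, ahrra, krt99 and rrm2 (ENSDARG00000078069) were higher (6 genes, 0.0278%) and pcdh1g30, ftr88 and rnf213b were lower (3 genes, 0.0139%). In that mean cyp1a had a change of 2.58 ± 0.36 (edgeR adjusted p = 0.0133), cyp1b1 2.37 ± 0.26 and cyp1c1 1.24 ± 0.14 (adjusted p = 0.00348 each). Without vehicle 3 the 9 were 310, without mock filter 1 they were 264, without mock filter 2 or 3 they were 3, and without harbour 36 or 38 or road 26 or 28 they were 5.

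Airport air changed 3209 genes, 1712 higher (7.92%) and 1497 lower (6.93%). Leaving out single libraries gave 1447 to 3565 genes, with the lowest counts without mock filter 3 (1447), airport 44 (1594) and mock filter 2 (1658). Against mock filter 1 alone 81 genes passed. Over all genes, 3658 (16.9%) differed between the 3 sites. Most of the listed cell cycle and matrix genes fell and most immediate early genes rose, while in the stress, inflammation and glucocorticoid lists fewer than 1 in 2 members rose. The medians by gene list are plotted for each site.

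**Figure D3:**
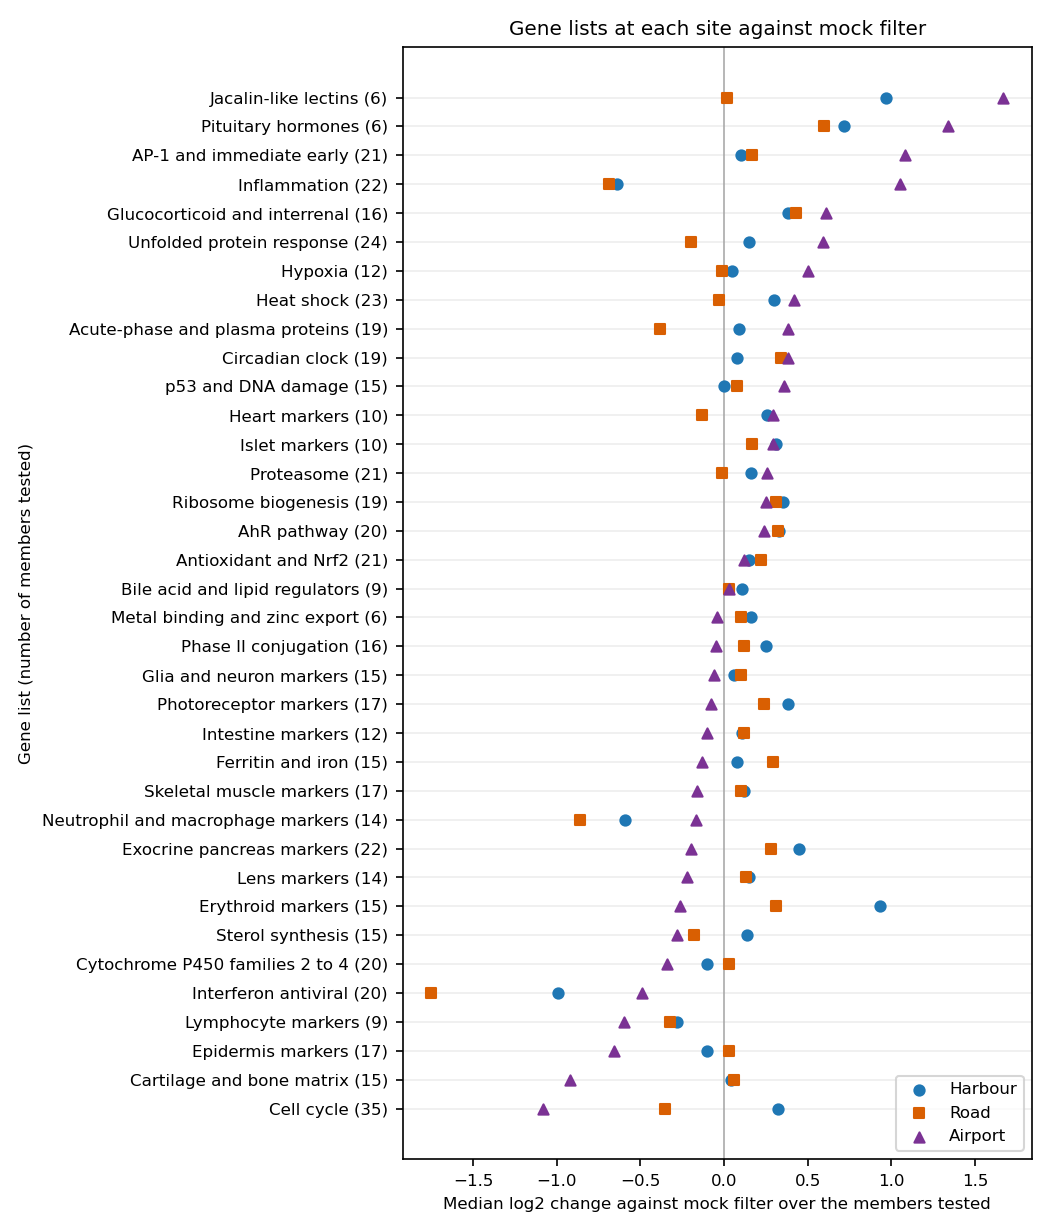
Median log2 change against mock filter over the members of each gene list, for harbour (circles), road (squares) and airport (triangles); the number of members tested stands beside each list. Airport reaches -1.08 for the cell cycle list and 1.08 for AP-1 and immediate early genes, where harbour and road lie between -0.35 and 0.32.

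Proliferation genes fell in airport air. Of 35 cell cycle genes tested 30 fell, against 6.93% of all genes, and none rose, with a median of -1.08. Below mock filter without overlap lay 34, against 17.8% of all genes. Harbour had a median of 0.32 with 31 positive and road -0.35 with 2 positive, and no member passed at either. The summed level was 953 to 1030 CPM in mock filter, 844 to 1060 CPM in vehicle, 855 to 1480 CPM in harbour, 755 to 880 CPM in road and 472 to 581 CPM in airport. kif11, a spindle motor, had 19.7, 25.5 and 29.4 CPM in mock filter and 9.03, 9.24 and 10.5 CPM in airport 44, 48 and 54, with 15.7 to 32 CPM in harbour and 15.3 to 17.4 CPM in road. Airport and road lay below mock filter and harbour overlapped with it, and airport fell by 1.37 ± 0.22 (edgeR adjusted p = 0.00229). cdc20, which activates the anaphase-promoting complex, had 9.58, 9.73 and 12.2 CPM in mock filter and 4.77, 4.15 and 3.77 CPM in airport (-1.32 ± 0.22, adjusted p = 0.00267). tpx2 and kif23, further spindle genes, fell by 1.24 and 1.1 (adjusted p = 0.00383 and 0.00289). These calls held without any 1 library, and the sites differed for tpx2, kif23 and kif11 (adjusted p = 0.00255, 0.0027 and 0.00279). The list median was -0.98 without airport 44 (20 fell), -1.01 without airport 54 (24 fell) and -1.01 against mock filter 1 alone. Of all genes tested, 562 of 21888 were lower without airport 44 and 1252 of 21825 without airport 54.

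Matrix genes of cartilage and bone also fell, 12 of 15 tested with none higher and a median of -0.92, against 6.93% of all genes lower. Harbour and road had medians of 0.04 and 0.06 with no member past the threshold. col1a2, a chain of type I collagen, had 1070, 950 and 968 CPM in mock filter and 426, 471 and 525 CPM in airport, far below the other groups (-1.07 ± 0.14, edgeR adjusted p = 0.000918). It held without any 1 library and against mock filter 1 alone (-1.14, adjusted p = 0.0368). col9a1a, a cartilage collagen chain, had 115, 120 and 125 CPM in mock filter, 117 to 157 CPM in harbour, 107 to 124 CPM in road and 62.5, 66.5 and 68 CPM in airport (-0.87 ± 0.11, adjusted p = 0.000918), and the sites differed (adjusted p = 0.000404). col11a1a and col1a1b fell by 1.16 and 0.93 (adjusted p = 0.00186 and 0.00192). The list median against mock filter 1 alone was -0.89, with 1 member, col1a2, past the threshold. The median was -0.79 and 9 fell without airport 44, where 562 of 21888 genes tested were lower.

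**Figure D4:**
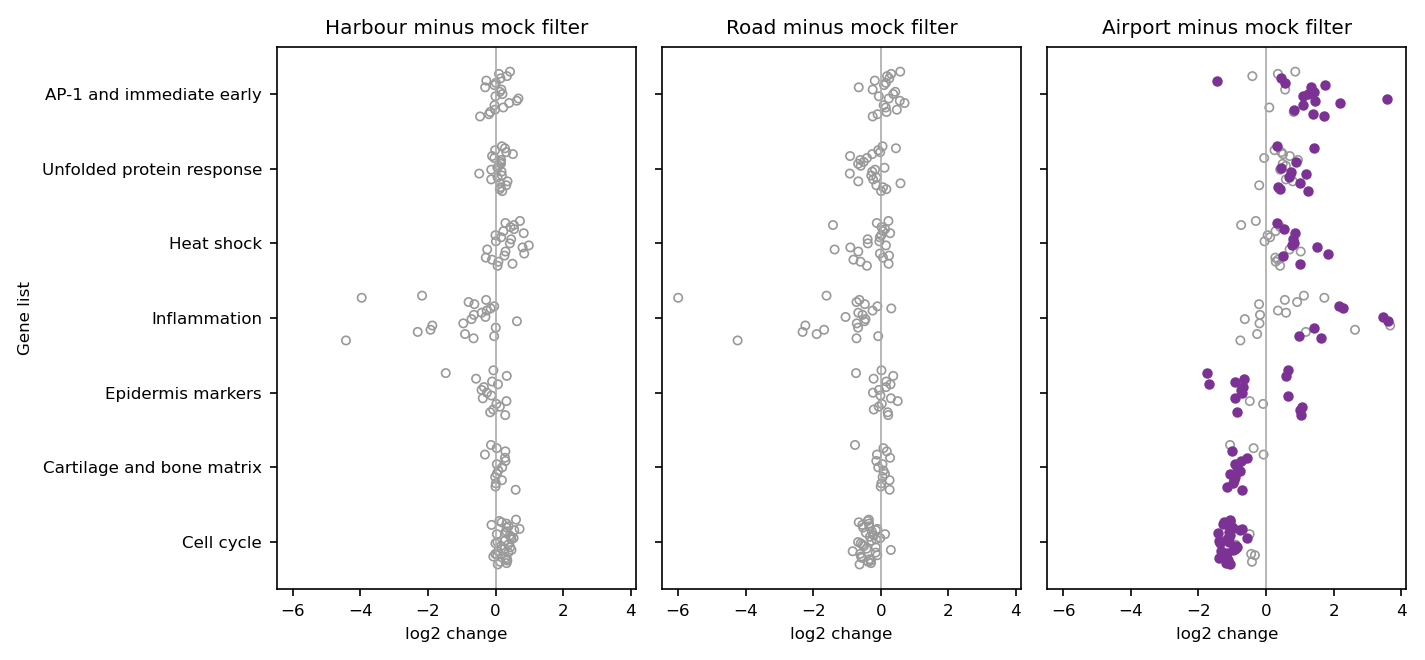
Log2 change against mock filter (horizontal axis) of each member of 7 gene lists (vertical axis) at harbour, road and airport; filled points passed the adjusted threshold in edgeR and open points did not. In airport most cell cycle and matrix genes lie left of 0 and most AP-1 and unfolded protein response genes right of 0, while no filled point appears for harbour and road in these lists.

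Epidermal genes went both ways in airport air, with 6 of 17 higher and 9 lower, against 7.92% and 6.93% of all genes. krt15, a keratin gene, had 268, 280 and 281 CPM in mock filter, 218 to 241 CPM in harbour, 197 to 260 CPM in road and 152, 192 and 165 CPM in airport. All 9 air libraries were below mock filter, airport the lowest (-0.70 ± 0.12, edgeR adjusted p = 0.00311). tgm1l2, a transglutaminase that crosslinks proteins, fell by 1.75 ± 0.37 (adjusted p = 0.00773) and krt93 by 0.66 (adjusted p = 0.0138). ppl, periplakin of the cornified envelope, had 320, 271 and 307 CPM in mock filter and 329 to 514 CPM in air, without overlap, and passed in airport (0.58 ± 0.17, adjusted p = 0.0282). The calls of krt93 and ppl were lost without mock filter 2 or 3 or airport 44, that of ppl also without airport 54, and that of krt15 held without any 1 library. Without airport 44 the counts were 5 higher and 5 lower, against 1032 and 562 of 21888 genes tested.

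Immediate early genes rose in airport air, where 7.92% of all genes tested were higher and 6.93% lower. Of 21 tested 14 rose and 1, klf2a, fell, with a median of 1.08, while harbour and road had medians of 0.10 and 0.17 and no member past the threshold. fosab, a subunit of the AP-1 transcription factor, had 12.9, 12.9 and 11.9 CPM in mock filter and 62.9, 51.6 and 55.9 CPM in airport, with no overlap (2.18 ± 0.47, edgeR adjusted p = 0.00863). fosl1a, another Fos gene, had 9.62, 8.12 and 6.08 CPM in mock filter and 185, 39 and 59.4 CPM in airport, with airport 44 far above the rest (3.57 ± 0.79, adjusted p = 0.00937). ier2b, an immediate early gene, had 14, 13.1 and 12.8 CPM in mock filter and 42.2, 42.5 and 23.5 CPM in airport (1.43 ± 0.30, adjusted p = 0.00675). Those 3 calls held without any 1 library, and klf6a (0.45, adjusted p = 0.0283) was lost without mock filter 1 or 2 or airport 44 or 48. klf2a, a flow-responsive factor of vessels, had 27.7, 121 and 109 CPM in mock filter and 27.2 to 34.1 CPM in airport, so mock filter 1 lay inside the airport range. The list median was 0.86 without airport 44 (7 rose, against 1032 of 21888 genes tested) and 1.25 against mock filter 1 alone.

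The count of inflammatory genes depended on airport 44. In airport 7 of 22 rose, against 7.92% of all genes tested, with a median of 1.05. The summed level was 867 to 2310 CPM against 331 to 728 CPM in mock filter. Without airport 44 the median was -0.11 and 3 rose. Over all genes, 1032 of 21888 were higher in that fit, against 1712 of 21608 with airport 44. mmp9, which encodes a gelatinase of leukocytes and wounds, had 7.49, 31.7 and 29.6 CPM in mock filter and 612, 79.7 and 60.1 CPM in airport, so airport 44 set the mean. Its change of 3.45 ± 0.93 (edgeR adjusted p = 0.0228) was lost without mock filter 1, 2 or 3 or airport 44, and the sites differed (adjusted p = 0.00494). mmp13a, a collagenase, had 2.25, 5.23 and 4.39 CPM in mock filter and 123, 13.9 and 8.75 CPM in airport (3.62 ± 0.82, adjusted p = 0.0103, lost without airport 44). plac8.2, of a family of small cysteine-rich proteins, had 0, 0.229 and 0.121 CPM in mock filter and 31.2, 7.22 and 0.766 CPM in airport, and it passed (adjusted p = 0.00545). The list members with the smallest p for air were acod1, relb, nfkb2 and il34, with changes of -3.14, -0.43, -0.45 and -0.62 that did not pass. The changes of relb, nfkb2 and il34 were 0.06, 0.03 and 0.03 against mock filter 1 alone. In harbour and road the list had medians of -0.64 and -0.69, which were 0.40 and 0.03 against mock filter 1 alone.

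Some protein stress genes rose in airport air. In the unfolded protein response list 11 of 24 genes rose and none fell, with a median of 0.59. Of 23 heat shock genes 10 rose and none fell, with a median of 0.42. Of all genes tested 7.92% were higher and 6.93% lower. trib3, a pseudokinase induced by ATF4, had 36.6, 33.8 and 33.1 CPM in mock filter and 126, 90.7 and 58.8 CPM in airport (1.41 ± 0.25, edgeR adjusted p = 0.00315). asns, asparagine synthetase, had 13.6, 14.3 and 14.1 CPM in mock filter and 35.8, 34.4 and 29.8 CPM in airport (1.25 ± 0.23, adjusted p = 0.00372). In both genes every airport library was above every mock filter library. bag3, a co-chaperone of Hsp70, had 12.5, 10.7 and 11 CPM in mock filter, 19.0, 14.1 and 15.7 CPM in harbour, 12.8, 14.1 and 13.6 CPM in road, and 23.8, 21.8 and 23.9 CPM in airport, so all 9 air libraries were above mock filter. Airport passed (1.01 ± 0.13, adjusted p = 0.00109), air did not (0.58 ± 0.11, adjusted p = 0.0605), and the sites differed (adjusted p = 0.00324). hspb1, a small heat shock protein, had 16.9, 12 and 12 CPM in mock filter, 29.6, 21.0 and 22.6 CPM in harbour and 23.8, 26.1 and 24.8 CPM in airport, and passed in airport alone (0.86 ± 0.17, adjusted p = 0.00599), with harbour at 0.83 (adjusted p = 0.0779). The 4 calls held without any 1 library. chac1, a glutathione-degrading enzyme gene (1.01, adjusted p = 0.0295), and hsp90aa1.1, a cytosolic chaperone (0.76, adjusted p = 0.0358), were lost without mock filter 2 or 3 or airport 48, chac1 also without mock filter 1 or airport 44, and hsp90aa1.1 also without airport 54. Without airport 44 the counts were 3 and 6, and the medians 0.46 and 0.44, while 1032 of 21888 genes tested were higher. Both lists kept positive medians against mock filter 1 alone, at 0.68 and 0.44, and none of their members passed.

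Some hormone genes rose as well in airport, against a background of 7.92% of all genes tested higher and 6.93% lower. Of 16 genes of glucocorticoid signalling and the interrenal gland 7 rose and none fell in airport, with a median of 0.61. sgk1, a kinase induced by glucocorticoids, had 97.5, 103 and 112 CPM in mock filter and 311, 312 and 277 CPM in airport, with no overlap (1.52 ± 0.23, edgeR adjusted p = 0.00189), and it passed against mock filter 1 alone (1.65, adjusted p = 0.0325). fkbp5, a co-chaperone of the glucocorticoid receptor, had 97.2, 48.8 and 48 CPM in mock filter and 476, 488 and 457 CPM in airport (2.87 ± 0.72, adjusted p = 0.0164), but vehicle ran from 15.1 to 226 CPM and the call was lost without mock filter 2 or 3. pck1, of gluconeogenesis, had 261, 318 and 303 CPM in mock filter, 679, 866 and 553 CPM in airport and 524 to 832 CPM in road, with vehicle from 205 to 613 CPM. It passed in airport (1.25, adjusted p = 0.0241), a call lost without mock filter 1, 2 or 3 or airport 44 or 48. For pck1 the airport libraries overlapped with vehicle. The list count was 3 without airport 44, a fit in which 1032 of 21888 genes tested were higher.

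Of 6 pituitary hormone genes tested 4 rose in airport, gh1, prl, smtlb and pomca, against 2 without airport 44. Of all genes tested 7.92% were higher in airport, and 1032 of 21888 without airport 44. gh1, growth hormone, had 12.2, 6.56 and 6.24 CPM in mock filter and 6.10 to 9.85 CPM in vehicle. It had 18.8, 17.6 and 13.4 CPM in harbour, 18.5, 17.3 and 13.3 CPM in road, and 17.8, 23.0 and 18.6 CPM in airport, so all 9 air libraries were above both control groups. The change was 1.25 ± 0.24 in airport (edgeR adjusted p = 0.00517), which held without any 1 library, and 1.07 ± 0.21 for air, which did not pass (adjusted p = 0.0605; 0.0126 to 0.45 over the fits without 1 library). The air change against mock filter 1 alone was 0.53. smtlb, a somatolactin, had 0.564 to 1.27 CPM in mock filter and 4.05 to 4.83 CPM in airport (2.1 ± 0.47, adjusted p = 0.00972). pomca, the precursor of ACTH, had 6.06, 3.35 and 2.42 CPM in mock filter and 9.49, 14.4 and 8.35 CPM in airport (1.44, adjusted p = 0.0321, lost without mock filter 2 or 3 or airport 44 or 48). prl, prolactin, was chosen after its values were seen, with 4.50, 0.826 and 0.604 CPM in mock filter and 11.4, 13.5 and 10.4 CPM in airport (2.56, adjusted p = 0.0246).

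Genes of metabolism and defence against oxidants showed smaller counts in airport, where 7.92% of all genes tested were higher and 6.93% lower. Of 21 antioxidant genes 5 rose and 1 fell, of 16 phase II genes 2 rose and 3 fell, and of 20 genes of cytochrome P450 families 2 to 4 none rose and 7 fell. nfe2l2b, a paralog of the Nrf2 factor, had 8.68, 7.07 and 7.85 CPM in mock filter, 9.13 to 10.5 CPM in harbour, 10.1 to 19.9 CPM in road and 16.1 to 17.7 CPM in airport, and all air libraries were above mock filter (airport 1.08 ± 0.22, edgeR adjusted p = 0.00599; air 0.81, adjusted p = 0.0841). prdx1, a peroxiredoxin that removes peroxides, had 30, 25.7 and 23.3 CPM in mock filter, 45.8, 30.5 and just over 30 CPM in harbour, 33.1 to 60.3 CPM in road and 40.0 to 67.2 CPM in airport, again without overlap between air and mock filter (airport 1.14 ± 0.23, adjusted p = 0.00616; air 0.78, adjusted p = 0.0923). ugt5a1, a glucuronosyltransferase, had 3.32, 2.39 and 2.82 CPM in mock filter and 7.0, 7.22 and 10.5 CPM in airport (1.54, adjusted p = 0.00559). gstt1b, a glutathione transferase, had 27, 29 and 34.4 CPM in mock filter and 14.2, 18 and 16 CPM in airport (-0.91, adjusted p = 0.00434). cyp4v2a, of fatty acid hydroxylation, had 59.7, 62.2 and 68.9 CPM in mock filter and 14.3, 18 and 32.1 CPM in airport (-1.55 ± 0.26, adjusted p = 0.00257), and cyp2k19 fell by 1.03 (adjusted p = 0.00235). The calls of these 6 genes held without any 1 library. Without airport 44 the counts were 4 and 0 for antioxidant genes (8 and 0 without airport 54), 1 and 1 for phase II genes, and 0 and 2 for the P450 families. Over all genes tested they were 1032 and 562 of 21888 without airport 44, and 1898 and 1252 of 21825 without airport 54.

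Smaller groups also had members that passed in airport, where 7.92% of all genes tested were higher and 6.93% lower. Of 12 hypoxia genes 5 rose and none fell, with adma, a vasodilator peptide, at 5.94 to 6.15 CPM in mock filter and 12 to 14.2 CPM in airport (1.1 ± 0.19, edgeR adjusted p = 0.00283). That count was 1 without airport 44. Of 19 genes of acute-phase and plasma proteins 5 rose and 1 fell, 3 of the 5 being the fibrinogen chains, among them fgb, chosen after its values were seen, with 96.5, 102 and 105 CPM in mock filter, 69.1 to 78.9 CPM in road and 189 to 210 CPM in airport (0.98 ± 0.15, adjusted p = 0.00186; sites adjusted p = 0.00038). nppb, a natriuretic peptide gene of the stressed heart, had 0.164 to 0.443 CPM in mock filter and 1.3 to 1.92 CPM in airport (2.32 ± 0.52, adjusted p = 0.01), and 3 of 10 heart genes rose. gcgb and sst1.1, islet hormone genes, rose by 1.39 and 0.89 (adjusted p = 0.00773 and 0.00512), within an islet list of which 4 of 10 rose and 1 fell. aep1, an aerolysin-like pore protein gene grouped with the jacalin lectins, had 18.3, 16 and 14.1 CPM in mock filter, 27 to 31.7 CPM in harbour, 15.9 to 19.5 CPM in road and 30.1 to 39.7 CPM in airport (airport 1.1 ± 0.16, adjusted p = 0.00177; air 0.71, adjusted p = 0.0605). grna.2, a granulin gene, had 3.15, 6.65 and 6.44 CPM in mock filter and 0.364 to 0.674 CPM in airport (-3.50 ± 0.71, adjusted p = 0.00607), and it passed against mock filter 1 alone (-2.69, adjusted p = 0.0402). Without airport 44 the counts of higher and lower genes were 5 and 0 for the acute-phase list, 2 and 0 for heart and 4 and 0 for islet. Over all genes tested they were 1032 and 562 of 21888. The calls of adma, nppb, gcgb, sst1.1, aep1 and grna.2 held without any 1 library.

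In several lists most members had a positive change for air without any member past the threshold, and 3 of them are described here. All 19 ribosome biogenesis genes tested had a positive change for air, with a median of 0.32 against -0.01 for all genes. They summed to 1340 to 1470 CPM in mock filter and 1400 to 1740 CPM in vehicle. At 1430 to 1870 CPM, air overlapped with both, and mock filter minus vehicle had a median of -0.15. Of these 13 were higher at an unadjusted p under 0.05 (7.64% of all genes) and 5 lay above mock filter without overlap (1.05% of all genes), and airport raised 5 (2 without airport 44). nop10, of the guide RNA complex that modifies ribosomal RNA, had 18.3, 17.7 and 17.2 CPM in mock filter and 21.7 to 30 CPM in air, but vehicle, at 18.9 to 25.9 CPM, overlapped with air. It passed in airport (0.54, edgeR adjusted p = 0.0228), a call lost without mock filter 2 or 3 or airport 54. pes, of ribosome subunit assembly, had 50.5 to 56.3 CPM in mock filter and 57.3 to 72.6 CPM in air (0.29, edgeR adjusted p = 0.0939). The median against mock filter 1 alone was 0.30, with 19 of 19 positive. Of 19 circadian clock genes 16 were positive for air, with a median of 0.27 (0.39 against mock filter 1 alone). In airport 3 rose, cry1b, hlfa and tefb, against 7.92% of all genes. The clock genes summed to 2300 to 2500 CPM in mock filter and 2530 to 3740 CPM in vehicle. Air, at 2430 to 3730 CPM, overlapped with vehicle. Mock filter minus vehicle had a median of -0.41, with 11 of 19 lower and 0 higher at an unadjusted p under 0.05 (edgeR). Over all 21608 genes 738 were lower and 634 higher by that measure. All 6 pituitary genes were positive for air, with a median of 1.09 (0.44 against mock filter 1 alone).

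The remaining lists are given by their counts. No gene of skeletal muscle (17 tested), intestine (12) or bile acid and lipid regulation (9) passed at any site. Exocrine pancreas enzymes had a median of 0.45 in harbour (0.28 against mock filter 1 alone) and none past the threshold. Of these 13 of 22 lay above mock filter without overlap, against 10.9% of all genes. In airport, where 7.92% of all genes were higher and 6.93% lower, 4 fell (0 without airport 44 and 1 without airport 54). Over all genes tested, 1032 were higher and 562 lower of 21888 without airport 44, and 1898 and 1252 of 21825 without airport 54. Photoreceptor genes had medians of 0.38 in harbour and 0.24 in road with none past the threshold, and in airport 1 of 17 rose and 5 fell (0 and 1 without airport 44, 0 and 3 without airport 54). Their summed level was 6410 to 7350 CPM in mock filter and 7590 to 8710 CPM in vehicle. Harbour, at 7680 to 9300 CPM, and road, at 7590 to 9030 CPM, overlapped with vehicle. Mock filter minus vehicle had a median of -0.27, with 7 of 17 lower and 0 higher at an unadjusted p under 0.05 (edgeR). Over all 21608 genes 738 were lower and 634 higher by that measure. Of 15 p53 and DNA damage genes 6 rose and 1, sesn3, fell in airport, against 0 and 1 without airport 44. In the ferritin and metal lists fthl27 (0.77, edgeR adjusted p = 0.00532) and slc30a1a, a zinc exporter gene (0.55, adjusted p = 0.00608), were the sole members past the threshold in airport, and none passed elsewhere. The summed level of 6 neutrophil markers was 790 to 994 CPM in mock filter and 784 to 1180 CPM in air, and of 14 neutrophil and macrophage markers mmp13a rose and grna.1 and cd74a fell in airport (0 and 1 without airport 44, 2 and 2 without airport 54), with none past the threshold at harbour or road.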

How the data were processed

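Paired poly-A RNA libraries were made with a strand-specific kit, per the labels' protocols. Per the submitters' processing notes, CASAVA and BWA (no version given) were used with GRCz11. The authors deposited raw counts per gene, and a quality table that gives the percent of reads mapped uniquely, left unmapped or marked as duplicates. Which program counted reads, with what annotation and strand setting, is not given in the sources used here.

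Of 25432 genes in the count table, 17766 had a symbol in the deposited table itself and 5860 took one from a reference table of gene IDs, while 1806 had none. Older symbols in the lists were looked up among RefSeq synonyms. The 15 libraries of series 35 were fitted together with 1 coefficient per group (10 residual degrees of freedom), TMM scaling, filterByExpr and edgeR 4.0.16 (R 4.3.3), whose quasi-likelihood test gave the p-values. DESeq2 1.42.0 was an alternative. The air comparison is the mean of the 3 site coefficients. CPM values use TMM library sizes.

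The members and gene lists were chosen with earlier results of these data known. Lists matched 611 of 640 entries. Genes were named by size of change among those called without overlap and at a mean log2 CPM of 1 or more, up to 10 per direction for air (same sign at each site, provisional names left out) and 5 per site. Every AhR pathway member and, from each other list, the 4 members with the smallest p for air were named too. The values of 1 list member are not reported here. Chosen outside this rule, after their values were seen, were the other called genes of air, harbour and road, and alas2, cryaa, fgb, fthl28, gfap, jac9, klf2a, prl, slc4a1a and tefb. No pair of libraries within a group was a duplicate deposit, since chi-square per degree of freedom was 5 to 57.8 over 15 pairs. Deviations from the group mean of same-numbered mock filter and vehicle libraries correlated at 0.231, -0.205 and 0.306, against -0.402 to 0.284 for other pairs. With so few libraries these values cannot decide whether the numbers pair the samples, and the main fit used no pairing. Intervals cover counting error only.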

Additional observations from a re-analysis of the deposited data

Results flagged for a closer look

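In 5 of the named genes 1 of the 9 air libraries stood far from the others. Airport 44 did so with 612 CPM for mmp9, 185 CPM for fosl1a, 123 CPM for mmp13a and 31.2 CPM for plac8.2, and harbour 32 did so with 14 CPM for ccl19b, a chemokine gene. Chance marks about 1 in 20 groups in this way if all values come from 1 normal population, and the named genes are many. The sites differed for mmp9, fosl1a, mmp13a and plac8.2, so that rate need not hold for them. ccl19b had 6.96, 34.8 and 31.2 CPM in mock filter and 3.68, 2.08 and 5.92 CPM in airport 44, 48 and 54.

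Harbour, road and airport differed in 3658 genes by a test of the difference between the sites. Among the genes named for air or for the AhR pathway, the edgeR adjusted p of that test was 0.0011 for cyp1b1, 0.000895 for cyp1c1, 0.00262 for cyp1a, 0.00113 for ugt1b1, 0.00532 for ptges3b and 0.046 for sox9b. It was 0.0002 for pcdh1g30, 0.00113 for cfp, 0.00086 for hbbe2, 0.000639 for rrm2 (ENSDARG00000078069) and 0.00738 for gli1. For genes named at airport it was 0.00404 for plac8.2, 0.0048 for mmp13a, 0.00782 for fosl1a, 0.00494 for mmp9 and 0.0465 for grna.2. The gene loc101882496 had 16.7, 16.5 and 12 CPM in mock filter and 0.467, 0.727 and 3.26 CPM in airport, with an adjusted p of 0.0219 for the sites.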

How the results depend on the processing

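The count of 8 genes for air was 21 with no filter on low counts, 525 with DESeq2, 397 with all 33 libraries and library series as covariate, 337 with the air and mock filter libraries alone, 0 with 1 coefficient for all air libraries and 0 against mock filter 1 alone. The 15 genes of harbour were 346, 60, 149 and 3 with DESeq2, all 33 libraries, the air and mock filter libraries alone and mock filter 1 alone. The 3 genes of road were 36, 13, 61 and 0 in the same order, and the 9 of harbour with road were 263, 108, 252 and 0. For mock filter against vehicle, 0 genes became 1 with DESeq2, 3 with all 33 libraries and 1 without the 3 libraries that stood apart. Airport gave 81 genes against mock filter 1 alone and 2618 to 4076 in the other alternatives. With the percent of uniquely mapped reads as covariate, harbour with road gave 5 genes and the test between sites 1981. Alternatives chosen after seeing the data were the percent of duplicate reads as covariate (4 genes for air, 25 for harbour), a fit without the airport libraries (5 for harbour with road) and the values of gene lists without single libraries. Leaving out 1 library gave 0 to 413 genes for air, 3 to 171 for harbour, 0 to 124 for road, 1447 to 3565 for airport, 3 to 310 for harbour with road, 0 to 54 (the latter without vehicle 3) for mock filter against vehicle and 1871 to 4271 between the sites. Except where the alternative itself has fewer libraries, the cause was not tested.

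Air changes that turned sign against mock filter 1 alone were irge1 (0.40), cp (0.23), cfb (0.37), c3a.1 (0.325), mxc (0.33), marco (0.265), mfap4.1 (0.10), rag2 (0.38), relb (0.055), nfkb2 (0.034), il34 (0.026), cdx1b (0.043), nr0b2a (0.87), mipa (0.17) and mipb (0.08), which became positive, and cyp1c2 (-0.16), cyp1d1 (-0.076), jac8 (-0.635) and jac9 (-0.81), which became negative. Over the fits without 1 library, the air change was -1.057 to 0.327 for ahrrb, -0.805 to 0.423 for lss and -0.234 to 0.048 for mylpfb, positive without mock filter 1. It was -0.123 to 6.839 for jac8 and -0.139 to 5.737 for jac9, negative without harbour 32, and -0.001 to 0.043 for arnt2, negative without airport 54. Of the other values of named genes without 1 library, 4062 kept their side of the threshold, 97 newly passed and 290 no longer passed, against 2275, 109 and 173 under the other settings.

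No paired analysis of air and mock filter libraries was made. Their titles share some endings after the filter number, but the labels do not say what these endings mean. The part of these endings in the results was not tested. For mock filter against vehicle, the fit with a replicate block called 0 genes, as did the same 6 libraries with no replicate block.

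Depth was 18448718 counts or more per library, and ahrra, ftr88, jac11 and rnf213b had few counts in some groups, which limits their folds.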

Other observations

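A few lens and glial genes fell in airport air, where 6.93% of all genes tested were lower. Of 14 lens markers 3 fell and none rose, with mipa and mipb, water channels of the lens fibre, at -0.77 and -0.82 (edgeR adjusted p = 0.00629 and 0.0129) and cryaa, a chaperone crystallin, at -0.40 (adjusted p = 0.0365). mipa had 92.9, 90.3 and 79.7 CPM in airport 44, 48 and 54. Its call held without any 1 library, while the lens median was 0.00 against mock filter 1 alone. The summed level of the 14 lens markers was 5160, 6440 and 6280 CPM in mock filter 1 to 3 and 4520 to 5330 CPM in airport. Mock filter 1 thus lay inside the airport range. Of 15 glia and neuron markers 2 fell, gfap, an intermediate filament of astroglia (-0.59 ± 0.11, adjusted p = 0.00488), and plp1a, a myelin protein (-0.61, adjusted p = 0.0257). gfap had 118, 123 and 95.1 CPM in airport, and the sites differed (adjusted p = 0.0011). Of 9 lymphocyte markers tested rag2, a recombinase of lymphocyte receptors, and lck, a T cell kinase, fell in airport (-1.32 and -1.45, adjusted p = 0.0199 and 0.0344), and neither passed without mock filter 2 or 3 or airport 44. No member of these 3 lists passed at harbour or road. In airport, 2 lens, 1 glial and 0 lymphocyte genes fell when airport 44 was left out, and 1 lymphocyte gene without airport 54. Of all genes tested, 562 of 21888 and 1252 of 21825 were lower in these fits.

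In sterol synthesis srebf2, which encodes the factor that drives these genes, and ldlra, a lipoprotein receptor gene, rose in airport by 0.46 and 0.53 (edgeR adjusted p = 0.0234 and 0.0284), and none of 15 fell. Without airport 44, or without airport 54, 1 rose, where 1032 of 21888 and 1898 of 21825 genes tested were higher. With all 3 airport libraries 7.92% of all genes tested were higher. The list median there was -0.28, and it was -0.75 with 3 lower against mock filter 1 alone. Of 21 proteasome genes 3 rose in airport, with a median of 0.26, psmd1 among them (0.51, adjusted p = 0.00446), and 20 of 21 were positive for air. The airport count was 13 with a median of 0.39 without airport 54. Of 6 jacalin-like lectin genes tested 2 rose in airport. srsf3a, a splicing factor gene, had 1.92, 0.688 and 0.161 CPM in mock filter and 9.49, 11.7 and 8.35 CPM in airport (3.40 ± 0.82, adjusted p = 0.0141, lost without mock filter 2 or 3).

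Among genes without a symbol, ENSDARG00000115161 had 27.5, 20.6 and 16.9 CPM in mock filter and 60.5, 73.9 and 134 CPM in harbour 32, 36 and 38 (2.04 ± 0.29, edgeR adjusted p = 0.0121). ENSDARG00000099511 had 11.5, 7.07 and 12.8 CPM in mock filter and 1.82, 1.65 and 0.709 CPM in harbour (-2.89 ± 0.40, adjusted p = 0.012). The percent of duplicate reads was 17.3 to 31.1 over the 15 libraries and was highest in mock filter 1, vehicle 2 and 3 and road 28, with 31.1 in mock filter 1. Its part in the results was not tested beyond the fit with it as covariate. The quality table gives a number of FLIs, an abbreviation read here as flowcell lane index units and called lanes. It was 2 for mock filter 1 and vehicle 2 and 3, and 4 or 6 for the other 12 libraries. No air library was read on 2 lanes, so lanes and groups cannot be told apart for comparisons with mock filter 1.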
